A study of Mus musculus with 10 samples.

Results

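Fraction 2 of a Percoll density gradient from 8-day-old mouse testis, labelled spermatogonia, was compared with a mixture of somatic tissues from 15-day-old mice. The members were chosen by sample title, 2 samples of fraction 2 and 2 of the mix, which is 4 of the 10 samples of the series. The study's title names a search for genes that act in chromosome segregation at the first meiotic division. The other samples were fraction 5 at day 12 (leptotene/zygotene), fraction 8 at day 15 (pachytene) and whole testis at day 15. All mice were C57BL/6 males with no transgene or treatment named. Testes for the fractions were decapsulated and digested with hyaluronidase, trypsin and collagenase before the gradient. The mix held skin, spleen, muscle, kidney, liver, colon, intestine, stomach, lung, heart and brain, which makes 11 tissues. The sources used here do not give the amount of each tissue or the number of animals pooled. The 2 samples of a group were hybridised to 2 different array designs, so each gene had 1 array per group and no test across replicates. Age, tissue and the cell separation differ together between the groups and cannot be told apart.

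Spermatogonia are the mitotic germ cells of the testis. They lie on the basement membrane of the seminiferous tubule, between Sertoli cells, the somatic cells that nurse them, while Leydig cells outside the tubule make testosterone. Many genes of germ cell RNA regulation, transposon silencing and meiosis carry CpG-rich promoters that are methylated or repressed in somatic tissues.

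Signals are array intensities on a linear scale, scaled to a common trimmed mean within each design, and a difference is log2 of fraction 2 minus log2 of the mix. Signals under a floor (87.6 on the first design, 47.0 on the second) were set to it, and a difference against the floor is a lower bound, written "at least". A difference of 4-fold or more was called. On the 100 probe sets placed on both designs, the error of a difference was 0.21 log2 and its 95% limit 0.42 log2 (1.34-fold). Below, "higher" or "lower" without a call means beyond that limit. These probe sets were all above the floors in both groups, so the limit may be too narrow for genes near a floor or for other probe sets. The share of probe sets above the floor was 59.7% and 48.5% in fraction 2 and 64.1% and 56.0% in the mix, on the 2 designs. The actin control's 3′ over 5′ ratio was 3.33 and 3.40 in fraction 2, 1.88 and 2.30 in the mix and 5.22 and 6.57 in whole testis. The Gapdh control's ratio was 1.11 and 1.13, 1.21 and 1.18, and 4.33 and 3.75 in the same order. The part of these shares and ratios in the results was not tested.

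The label was checked first against 3 markers. Dmrt1, a transcription factor of spermatogonia and Sertoli cells, read 1446 in fraction 2, 1225 in whole testis and 14.4 in the mix, which makes it at least 16.5-fold higher than the mix. Clu, the clusterin secreted by Sertoli cells, read 14728 in fraction 2, 14076 in whole testis and 3739 in the mix, a difference of 1.98 log2 that lay just under the call. Cyp17a1, the steroid 17-alpha-hydroxylase of Leydig cells, read 3413 in fraction 2, 1025 in whole testis and 10.8 in the mix, at least 38.9-fold higher than the mix. Clu and Cyp17a1 mark somatic cells of the testis, and Dmrt1 does not separate spermatogonia from Sertoli cells. The summed signal of the spermatogonial list was 19606 in fraction 2, 26705 in fraction 5 and 13501 in whole testis, which was taken at day 15. That of the Sertoli list was 107686, 97198 and 71566 in the same order. That of the Leydig list was 38720, 26823 and 21618. Most other germ cell lists, described below, had less signal in fraction 2 than in whole testis. The germ cell RNA list summed to 14424 and 44292, and the methylated list to 14326 and 39008. The meiotic axis list summed to 12048 and 29541, and the X-linked list was near equal (7282.5 and 7274). Since Sertoli and Leydig genes had more signal here than in whole testis, as the spermatogonial list did, the samples are called fraction 2 below. Whole testis had higher 3′ over 5′ ratios than fraction 2 and held pancreas and liver transcripts. The part of these in the comparisons with whole testis was not tested. In bulk samples more cells of a type and more RNA per cell cannot be told apart.

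**Figure D1:**
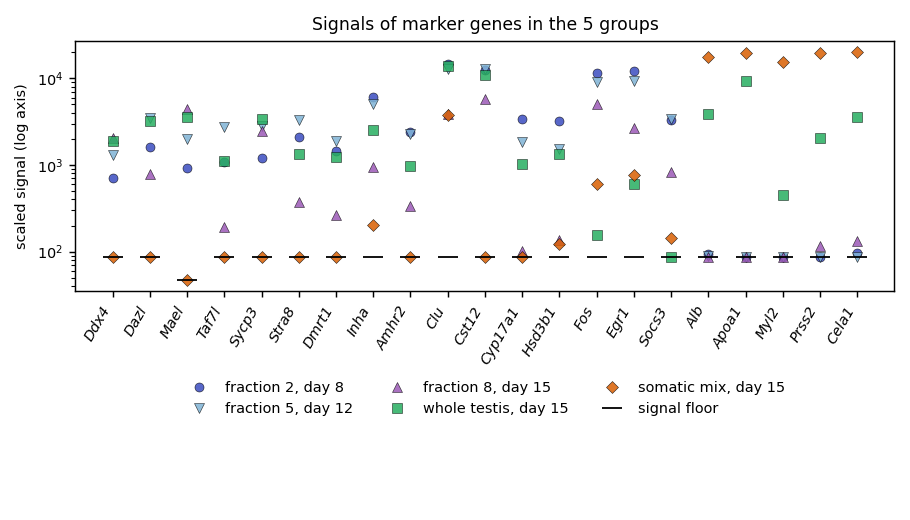
Scaled signal (log axis) of 21 genes in fraction 2, fraction 5, fraction 8, whole testis and the somatic mix, 1 array each, with signals under the floor drawn at the floor (black bar). Germ cell genes such as Ddx4 and Dazl are at the floor in the mix, Cyp17a1 is higher in fraction 2 than in whole testis, and Prss2 and Alb are at or near the floor in fraction 2.

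Among 18193 genes read, 14616 were above the floor in at least 1 of the groups. Fraction 2 was at least 4-fold higher for 572 of them (3.91%) and at least 4-fold lower for 950 (6.5%). The mix was at the floor for 186 of the higher genes, and fraction 2 was at the floor for 607 of the lower genes. Large differences were mostly on the lower side, with 239 genes at 16-fold or more lower against 57 higher, and 62 at 64-fold or more lower against 5 higher. Beyond the error limit, 35.8% of genes were higher and 32.4% lower. The 11204 genes above the floor in both groups had a median difference of 0.19 log2. Higher genes made up 37.6% of the calls, and this split moved with the scaling: it was 48.1% with median scaling (752 higher, 810 lower), 50.6% on the values as deposited (859 and 839) and 27.8% with scaling to the shared probe sets (412 and 1068). These scalings shifted the median difference by 0.20, 0.22 and -0.21 log2.

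**Figure D2:**
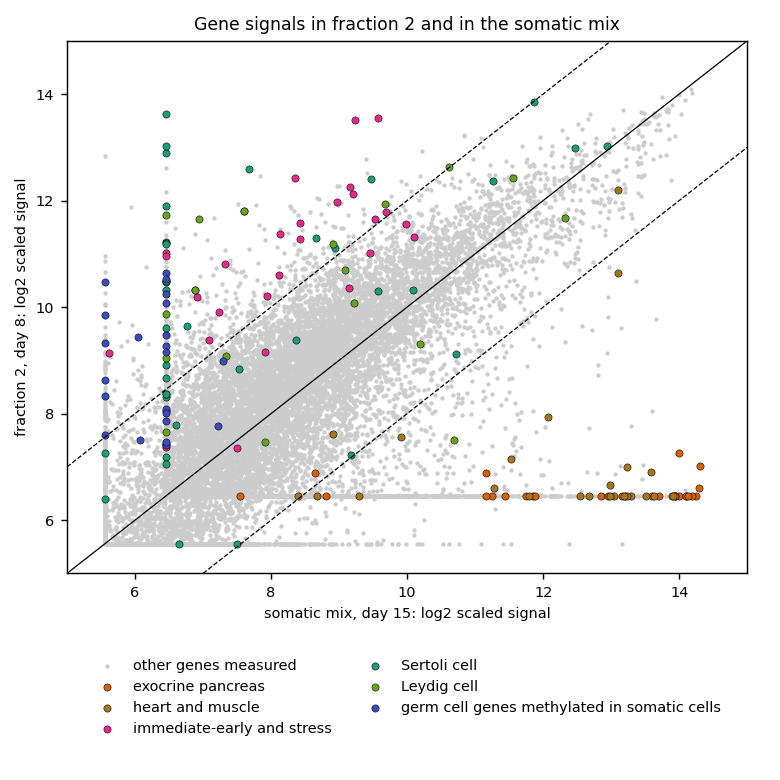
Each point is a gene, with its log2 scaled signal in the somatic mix on the horizontal axis and in fraction 2 on the vertical axis, and floors drawn as the straight rows and columns of points. The solid line marks equal signals and the dashed lines 4-fold differences; 25 of the 27 exocrine pancreas genes lie below the lower dashed line, and 21 of 29 immediate-early genes and 14 of the 23 germ cell genes drawn lie above the upper one.

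Genes of germ cell RNA regulation and the piRNA pathway, which silences transposons, stood high in fraction 2. Of 34 read, 15 were at least 4-fold higher and none lower, against 3.91% and 6.5% of all genes measured, and 5 were at the floor in both groups. Mael, a piRNA pathway protein of the germ cell cytoplasm, read 928 in fraction 2 and 2.50 in the mix, at least 19.7-fold higher. Dazl, an RNA-binding translation regulator of germ cells, read 1597 against 3.61, at least 18.2-fold higher. Ddx4, the vasa RNA helicase that marks germ cells, read 707 against 7.14, at least 8.07-fold higher. All 3 were below the floor in the mix and clear of it in fraction 2. Gtsf1, a partner of PIWI proteins, read 1735 against 71.4, 24.3-fold higher and the largest difference in this list. Piwil2, a PIWI protein itself, read 568 against 67.4, at least 6.48-fold higher. Tdrd9, a helicase of the same pathway, read 449.6 against 65.8, 6.83-fold higher. Several of these had more signal in whole testis, where Gtsf1 read 5663, Mael 3577 and Piwil2 2605. At the low end Tdrd7 (438 against 505) and Tdrd3 (421 against 328) had signal in the mix and differed by less than the error limit. The median over the 29 measured was 2.01 log2, and that over all genes measured 0.040.

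A list of germ cell genes whose promoters are known to be methylated in somatic cells overlaps the previous list and that of the meiotic axis. Of its 27 members read, 14 were at least 4-fold higher and none lower, against 3.91% and 6.5% of all genes measured. At the floor in both groups were 4. The 23 measured had a median of 2.77 log2, and a member at the floor in the mix could enter this count only through signal in fraction 2, which holds for the other lists too. Rhox13, an X-linked homeobox gene of germ cells, read 1423 against 13, at least 30.3-fold higher. Tex101, a germ cell surface glycoprotein, read 1473 against 18.9, at least 16.8-fold higher. Slc25a31, an ADP/ATP carrier of the germ line, read 641 against 11.6, at least 13.6-fold higher. Taf7l, an X-linked paralogue of a general transcription factor subunit, read 1083 against 14.8, at least 12.4-fold higher. The lowest differences were those of Sohlh2 (218 against 149), Dpep3 (171 against 8.08) and Cyct (178 against 35.2).

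The 250 bases before the start of these genes were read from RefSeq promoters of GRCm38.p6, since germ cell genes of this kind are known to carry E-box and E2F-like letters that a Polycomb complex with MGA, E2F6, PCGF6 and L3MBTL2 recognises in other cells. The E-box CACGTG, which reads the same on both strands, stood in 11 of 24 promoters of the methylated list (45.8%), in 10 of 27 of the RNA list (37.0%) and in 6 of 16 of the meiotic axis list (37.5%). It stood in 8.13% of 11714 promoters of all genes measured and in 6.04% of all 27025 promoters of that length. The E2F letters TTCCCGC, searched on both strands and so also as GCGGGAA, stood in 6 of 24 of the methylated list (25%), against 6.38% of genes measured and 3.86% of all promoters. Both motifs stood together in 12.5% of the methylated list and 0.487% of genes measured. The 157 promoters of all genes called higher against a mix at the floor held an E-box in 8.92%, close to that of all genes measured, while the share was 5.35% in 467 genes called lower with fraction 2 at the floor. The median number of CpG was 14 in genes measured and 3 in those lower genes. It was 15 in the methylated list, 18 in the RNA list and 14.5 in the meiotic axis list. In the genes called higher against a mix at the floor it was 12. The E-box was in 4 of 31 Sertoli promoters (12.9%) and in none of 11 Leydig promoters. A match is a description of letters, not a binding site.

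Promoters are shown for the 3 called members of these lists with both motifs (Ddx4, Sycp3 and Tex12), for Taf7l and Slc25a31 with an E-box alone, and for Dazl with neither. They run 5′ to 3′ on the gene's strand and end at the base before the start, with the E-box and E2F letters in capitals. Ddx4 lies at chr13:112652311-112652560 on the minus strand, with the E2F letters 136 and the E-box 29 bases before the start. Sycp3 lies at chr10:88459337-88459586 on the plus strand, with the E2F letters 147 and E-boxes 64 and 43 bases before the start. Tex12 lies at chr9:50561269-50561518 on the minus strand, with the E2F letters at 145 and the E-box at 93. Taf7l lies at chrX:134476491-134476740 on the minus strand (E-box at 49), Slc25a31 at chr3:40708621-40708870 on the plus strand (E-box at 93), and Dazl at chr17:50293621-50293870 on the minus strand.
Ddx4: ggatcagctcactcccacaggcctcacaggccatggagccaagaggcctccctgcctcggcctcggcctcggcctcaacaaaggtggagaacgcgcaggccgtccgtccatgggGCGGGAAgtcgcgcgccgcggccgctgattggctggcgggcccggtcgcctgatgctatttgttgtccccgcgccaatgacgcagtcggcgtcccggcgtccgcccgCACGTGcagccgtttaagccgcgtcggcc
Sycp3: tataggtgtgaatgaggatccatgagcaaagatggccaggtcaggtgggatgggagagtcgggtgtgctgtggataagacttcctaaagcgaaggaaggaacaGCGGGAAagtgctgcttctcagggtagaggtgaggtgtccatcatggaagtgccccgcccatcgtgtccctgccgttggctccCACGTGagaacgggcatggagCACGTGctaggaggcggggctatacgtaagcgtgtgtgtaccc
Tex12: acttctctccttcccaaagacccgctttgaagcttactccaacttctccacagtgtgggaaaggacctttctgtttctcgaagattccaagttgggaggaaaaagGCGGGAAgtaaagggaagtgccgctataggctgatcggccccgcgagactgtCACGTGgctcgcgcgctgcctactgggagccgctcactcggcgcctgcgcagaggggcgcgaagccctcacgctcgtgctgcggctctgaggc
Taf7l: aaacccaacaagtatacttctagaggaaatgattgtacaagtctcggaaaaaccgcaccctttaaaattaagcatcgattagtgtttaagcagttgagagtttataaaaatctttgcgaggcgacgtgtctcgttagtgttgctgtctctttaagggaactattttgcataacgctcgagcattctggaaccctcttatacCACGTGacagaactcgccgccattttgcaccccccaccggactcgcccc
Slc25a31: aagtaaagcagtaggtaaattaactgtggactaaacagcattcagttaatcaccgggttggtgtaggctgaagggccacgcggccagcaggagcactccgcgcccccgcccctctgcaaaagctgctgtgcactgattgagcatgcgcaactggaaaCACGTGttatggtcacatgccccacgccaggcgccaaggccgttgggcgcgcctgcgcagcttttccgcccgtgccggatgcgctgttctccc
Dazl: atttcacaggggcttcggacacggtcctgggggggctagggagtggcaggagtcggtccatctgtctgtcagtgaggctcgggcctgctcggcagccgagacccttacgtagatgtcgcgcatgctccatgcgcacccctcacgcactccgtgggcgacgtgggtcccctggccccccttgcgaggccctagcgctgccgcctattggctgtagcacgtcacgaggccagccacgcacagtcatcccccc
All 6 genes were at the floor in the mix and called higher in fraction 2, Dazl included. The genes of the complex had signal on both sides. E2f6 read 655 in fraction 2 and 401 in the mix, L3mbtl2 416 and 260.5, and Pcgf6 271 and 216. Mga read 77.9 and 112, the former below the floor.

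Spermatogonial markers were mixed. Of 38 read, 8 were at least 4-fold higher and 2 lower, against 3.91% and 6.5% of all genes measured, and 4 were at the floor in both groups. The median was 0.71 log2 over the 34 measured (1.18 over the 10 on the second design alone). Stra8, which responds to retinoic acid at the start of meiosis, read 2081 in fraction 2, 3295 in fraction 5, 1339 in whole testis and 47.8 in the mix, at least 23.7-fold higher than the mix. Sohlh1, a helix-loop-helix factor of differentiating spermatogonia, read 473 against 68.5, 6.90-fold higher. Sall4, a zinc finger factor of undifferentiated and differentiating spermatogonia, read 401 against 59.2, at least 4.58-fold higher. Elavl2 (at least 6.30-fold), Uchl1 (4.62-fold) and Sox3 (at least 4.45-fold) were called as well, beside Dmrt1 and Rhox13. Kit, the receptor of differentiating spermatogonia, was higher without a call, at 416 against 164. Other markers were not higher. Gfra1, the receptor for GDNF, read 172 against 232. Its co-receptor Ret read 149.7 against 142, and Zbtb16, whose probe sets disagree, 92 against 95, both within the error limit. The lower calls, whose count was near the share of all genes, were surface proteins that other organs also carry. Epcam, an epithelial adhesion protein, read 406 against 2967, and Thy1, present on neurons and T cells, 98.9 against 600.4, both called lower. Epcam's probe set on the second design was higher instead (0.78 log2).

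Genes of the meiotic chromosome axis were already above the somatic level in fraction 2. Of 19 read, 10 were at least 4-fold higher and none lower, against 3.91% and 6.5% of all genes measured. The list had 1 member at the floor in both groups and a median of 2.08 log2. Sycp3, a lateral element protein of the synaptonemal complex, read 1216 in fraction 2, 2828 in fraction 5, 3363 in whole testis and 69.6 in the mix, at least 13.9-fold higher than the mix. Sycp2, its partner, read 713 against 22.2, at least 15.2-fold higher. Syce3, of the central element, read 667 against 22.6, at least 14.2-fold higher. Stag3, a meiotic cohesin subunit, read 639.9 against 22.3, at least 7.30-fold higher, and Tex12, another central element protein, 574 against 36.1, at least 6.56-fold. Sycp1, the transverse filament, was below the call at 263 against 21.1, and so was the cohesin Rec8 at 177 against 6.20. Hormad2 (51.3 against 7.08) and Meikin (53.9 against 31.3) lay just above the floor in fraction 2.

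Recombination genes had few calls. Of 22 read, 2 were called higher, Tex15 (1568 against 7.44, at least 17.9-fold) and Rec114 (304 against 58.9, 5.16-fold), none lower, against 3.91% and 6.5% of all genes measured, and 3 were at the floor in both. Of the 19 measured, 14 were higher beyond the error limit, where 35.8% of all genes were, and none lower. The list's median was 1.41 log2, and 0.77 with the mean over a gene's probe sets. Tex15 is needed for transposon silencing and double-strand break repair, and Rec114 for break formation. Spo11, which makes the breaks, read 107 in fraction 2, 95.8 in the mix and 652 in whole testis. Dmc1, the meiotic recombinase, read 213, 55.7 and 289 in the same order. Pachytene and spermatid genes were mostly not seen: 22 of 32 read were at the floor in both groups and 1 was called higher, Cst9, which also stands in the Sertoli list. Ldhc, the lactate dehydrogenase of late germ cells, was below the floor in fraction 2 (58.8) but read 16538 in whole testis. Meig1 read 148 in fraction 2 and 6656 in whole testis.

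Sertoli cell genes stood high in fraction 2 beside those of germ cells. Of 42 read, 20 were at least 4-fold higher and none lower, against 3.91% and 6.5% of all genes measured, and 2 were at the floor in both groups. The median was 2.07 log2 (1.12 over the 8 measured on the second design alone). Cst12, a cystatin of Sertoli cells, read 12622 in fraction 2, 11018 in whole testis and 37 in the mix, at least 144-fold higher than the mix. Cst9, a cystatin also called testatin, read 7565, 6371 and 4.95, at least 86.3-fold higher. Aard read 8380.2, 5324 and 58.2, at least 95.6-fold higher. These 3 were below the floor in the mix and had high signal in whole testis as well as in fraction 2. Inha, the inhibin alpha subunit, read 6162 in fraction 2 and 204 in the mix, 30.2-fold higher. Inhbb, the inhibin beta-B subunit, read 2371 against 70.7, at least 27.1-fold higher, and Amh, the anti-Müllerian hormone, 482 against 21.9, at least 5.50-fold. Dhh, the hedgehog ligand of Sertoli cells, read 2316 against 51.3, at least 26.4-fold higher. Kitl, the ligand of Kit, read 2203 against 492, 4.48-fold higher, and Gdnf, the ligand of Gfra1, was close to the call at 331 against 10.6. Of the transcription factors, Wt1 read 1284 against 57.7 (at least 14.6-fold) and Sox9 804 against 109 (7.37-fold). Sox9 was below the floor in whole testis at 46.8, and Amh at 35.2. Gata4 (460.4 against 186) and the FSH receptor Fshr (221 against 97.1) were higher without a call. Ptgds, Gjb2, Fgf9 and Emx2 were lower beyond the error limit without a call.

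Leydig cell genes were high in fraction 2 too. Of 18 read, 9 were at least 4-fold higher and 1 lower, against 3.91% and 6.5% of all genes measured, with a median of 1.87 log2. The higher calls include Nr4a1, which also stands in the immediate-early list. Beyond the error limit 14 of the 18 were higher and 4 lower, against 35.8% and 32.4% of all genes. Hsd3b1, the 3-beta-hydroxysteroid dehydrogenase, read 3242 in fraction 2, 1333 in whole testis and 123 in the mix, 26.4-fold higher than the mix. Cyp11a1, which cleaves the cholesterol side chain, read 528, 219 and 10.1, at least 6.02-fold higher, while its probe set on the second design was within the error limit (-0.31 log2). Hsd17b3, which makes testosterone, read 937, 86.2 and 9.43, at least 10.7-fold higher. Each of these steroid enzymes was also higher in fraction 2 than in whole testis, and so was Cyp17a1. Nr5a1, the nuclear receptor that drives steroid genes in Leydig and Sertoli cells, read 1283 in fraction 2 against 118 in the mix, 10.9-fold higher. Star, which carries cholesterol into mitochondria, was higher without a call (542 against 163). Hsd11b1, a glucocorticoid-activating enzyme of liver as well, was the lower member, at 183 against 1642. Cholesterol synthesis, which feeds steroid production, had 2 of 20 members called higher, Msmo1 (4.45-fold) and Idi1 (4.08-fold), and none lower. With so few calls, both just past 4-fold, the calls do not set this list apart from the share of all genes. Beyond the error limit 13 of the 20 were higher and 4 lower, where 35.8% and 32.4% of all genes were. The list's median was 0.93 log2.

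Genes of the tubule wall and its matrix differed by member. No peritubular, stromal or vascular gene of 29 read was called higher and 2 were called lower, Des and Thy1, near the 3.91% and 6.5% of all genes measured. Acta2, the smooth muscle actin of peritubular myoid cells, read 12692 in fraction 2 against 6599.9 in the mix, and Myh11, smooth muscle myosin, 2252 against 576, both higher without a call. Endothelial Pecam1 was below the floor in fraction 2 (46). Of 26 basement membrane genes read, 4 were called higher, all laminin chains. Lama2 read 4166 against 418 (9.97-fold), Lama1 874 against 48.4 (at least 9.97-fold), Lamc3 715 against 115 (6.21-fold) and Lamb1 3141 against 763 (4.12-fold). Lamb1's probe set on the second design was within the error limit (-0.39 log2), and the list's median of 0.89 log2 was -0.25 over the 5 genes measured there. Lama4, Hspg2 and Lama5 differed by less than the error limit. Among 29 genes of fibrillar matrix, Mfap4, a microfibril-associated glycoprotein, read 2872 against 95.8 (30.0-fold), and the fibrillin Fbn2 619 against 108 (5.75-fold). The interstitial collagens Col1a1 (-0.29 log2) and Col1a2 (0.39 log2) were within the error limit.

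Immediate-early and stress genes, which respond within minutes to growth factors and stress, had a median difference of 2.85 log2. Of 29 read, 21 were at least 4-fold higher and none lower, against 3.91% and 6.5% of all genes measured. Fos, an AP-1 subunit, read 11645 in fraction 2, 601 in the mix and 154 in whole testis, 19.4-fold higher than the mix. Egr1, a zinc finger factor, read 12019, 757 and 598, 15.9-fold higher. Nr4a1, an orphan nuclear receptor that also stands in the Leydig list, read 3561, 194 and 201, 18.3-fold higher. Fraction 2 was the high sample for all 3, and whole testis was near or below the mix. The summed signal of the list was 83011 in fraction 2, 59671 in fraction 5, 26028 in fraction 8, 11345 in whole testis and 11295 in the mix. Ier3 read 5492 against 328 in the mix and 76.1 in whole testis, and Fosl2 was the member within the error limit. A list of cytokine response genes, added after the values were seen, had 10 of 28 read called higher and none lower. Socs3, an inhibitor of cytokine receptors, read 3266 in fraction 2, 144 in the mix and 37.3 in whole testis. Cxcl1, a neutrophil chemokine, read 2602, 69.9 and 42.2, at least 29.7-fold higher than the mix. Leaving out the immediate-early, cytokine, Sertoli, Leydig, peritubular and exocrine pancreas lists left 514 genes called higher and 922 lower.

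Chromatin, ribosome and splicing genes were higher by small amounts. Of 30 chromatin regulators read, 4 were called higher and none lower, against 3.91% and 6.5% of all genes measured, with a median of 1.12 log2. Dnmt3b, a de novo DNA methyltransferase, read 1105 against 102 (10.9-fold), and Hells, a remodeller that aids DNA methylation, 825 against 123 (6.72-fold). Scml2, an X-linked Polycomb-like protein of germ cells, read 575 against 24.1, at least 6.57-fold higher, and the X-linked histone demethylase Phf8 887 against 138 (6.45-fold). Other probe sets on the second design did not repeat the calls of Hells (0.13 log2) and Phf8 (-0.16 log2), both within the error limit there. Scml2 reached 1.64 log2 there, short of the call. None of 24 ribosome biogenesis genes was called, but 21 were higher beyond the error limit, where 35.8% of all genes were. Of 21 splicing genes 17 were higher beyond the limit, and Sfpq was called (4.27-fold), though its probe set on the second design went the other way (-1.15 log2). On the second design alone 3 of 6 ribosome biogenesis genes and 2 of 6 splicing genes were higher beyond the limit. Of 32 replication and cell cycle genes read, 13 were higher beyond the limit and 5 lower, against 35.8% and 32.4% of all genes. Bub1, a spindle checkpoint kinase, was the called member, at 739 in fraction 2, 117 in the mix and 1870.5 in whole testis. Mki67 (1074 against 1812) and Mcm2 (519 against 1188) were lower without a call.

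The X chromosome had the highest share of called genes among chromosomes with over 100 genes measured. Of 486 X-linked genes measured, 72 were at least 4-fold higher in fraction 2 (14.8%) and 17 lower (3.5%). The autosomes had 498 of 14085 higher (3.54%) and 932 lower (6.62%), and the highest single autosome was chromosome 9 with 4.93%. The median difference was 0.42 log2 on the X and 0.030 on the autosomes. Over the scalings, floors and other alternatives run the X share ranged from 10.5% to 18% and the autosomal share from 2.16% to 5.55%. The X-linked genes called held germ cell genes, genes of testis somatic cells and widely used genes. Cited1, a transcriptional coactivator, read 3908 in fraction 2, 828 in whole testis and 6.57 in the mix, at least 44.6-fold higher. Nxf2, a germ cell mRNA export factor, read 509, 339 and 28.9, at least 5.81-fold higher. Nr0b1, the DAX1 nuclear receptor of steroidogenic and Sertoli cells, read 777, 564 and 27.5, at least 8.86-fold higher. Maged1 (4222 against 408 in the mix), the tubulin deacetylase Hdac6 (3398 against 338) and the ubiquitin ligase Rlim (1453 against 361) had signal in both groups. Other probe sets on the second design went the other way for Rlim (-0.69 log2), Gprasp1 (-0.69) and Mbnl3 (-0.56). Phf8 was within the error limit there (-0.16 log2). Erdr1 (0.64 log2), Maged2 (1.32) and Scml2 (1.64) missed the call there, while Zmym3 (2.47) and Gspt2 (2.29) repeated it. These were the X-linked genes called higher that had such a second reading. Of the list of X-linked genes known from spermatogonia, 8 of 18 read were called higher and 4 were at the floor in both. Lower X-linked genes included Otc, the liver's ornithine transcarbamylase (27 against 1538), and Alas2, the erythroid heme synthesis enzyme (14.7 against 2733). Of 7 Y-linked genes read from the list, Uba1y, a ubiquitin-activating enzyme of spermatogonia, was called, at 1195 against 12.1, at least 13.6-fold higher.

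**Figure D3:**
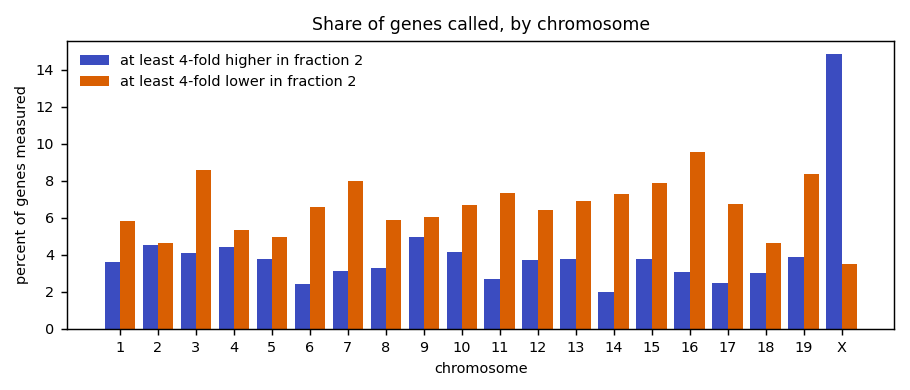
Percent of genes measured on each chromosome that were at least 4-fold higher (blue) or lower (orange) in fraction 2 than in the somatic mix; the Y, with 7 genes measured, is not drawn. The X stands at 14.8% higher, and no autosome is above 4.93%.

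Genes of somatic organs were low in fraction 2, with the largest differences of the comparison. The liver list had 15 of 18 read at least 4-fold lower, where 6.5% of all genes were, and none higher, with a median of -5.90 log2. Alb, serum albumin, read 94.9 in fraction 2, 3907 in whole testis and 17452 in the mix, 184-fold lower than the mix. Apoa1, the main HDL apolipoprotein, read 35.7, 9350.0 and 19657, at least 224-fold lower. Afp was the exception in direction, at 387 in fraction 2 against 178. Heart and muscle had 23 of 26 called lower, median -6.24, but the 4 measured on the second design alone had a median of -1.04 and none was called. Myl2, a ventricular myosin light chain, read 27 against 15436, at least 176-fold lower, and Ckm, muscle creatine kinase, 101 against 8091, 80.4-fold. Another Ckm probe set, on the second design, differed by -1.11 log2. Tnni3 (4684 against 8742) kept a high signal in fraction 2. The gut list had 15 of 26 called lower, the kidney list 8 of 13, brain 6 of 19, lung 3 of 11, skin 4 of 16 and spleen 5 of 13. Basp1, called higher in the brain list (5398 against 705), stands in the Sertoli list too. Other plasma protein genes among the largest differences were Ahsg (109 against 11236), the heme carrier Hpx (98.4 against 8205) and Gpx3, a secreted glutathione peroxidase (132 against 11328). Of 30 macrophage and blood genes read 20 were called lower and none higher. S100a8, a calcium-binding protein of neutrophils, read 5.40 against 6991, and Csf1r, the macrophage colony-stimulating factor receptor, 264 against 3700.4.

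Digestive enzymes of the exocrine pancreas were many of the named lower genes, although pancreas is not among the 11 tissues that the labels list. In a list added after the values were seen, 25 of 27 genes were at least 4-fold lower in fraction 2, where 6.5% of all genes measured were. The median was -7.14 log2, all but 1 of the 27 being measured on the first design alone. Cela1, an elastase, read 97 in fraction 2, 3561 in whole testis and 20105 in the mix, 207-fold lower. Prss2, a trypsinogen, read 60.9, 2029 and 19499, at least 223-fold lower. Ctrb1, a chymotrypsinogen, read 68.1, 3845 and 18617, at least 212-fold lower. The list's summed signal was 290236 in the mix and 51697 in whole testis, against 1411 in fraction 2, 1232 in fraction 5 and 1723 in fraction 8. Gcg, the islet hormone glucagon, read 1134 in the mix and 22.4 in fraction 2, and Ins2, insulin, 2884 and 337. The summed liver signal was likewise 31924 in whole testis against 1946 in fraction 2 and 139115 in the mix. Whole testis thus held pancreas and liver transcripts that were at or near the floor in fraction 2, and their part in the values of whole testis was not tested.

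**Figure D4:**
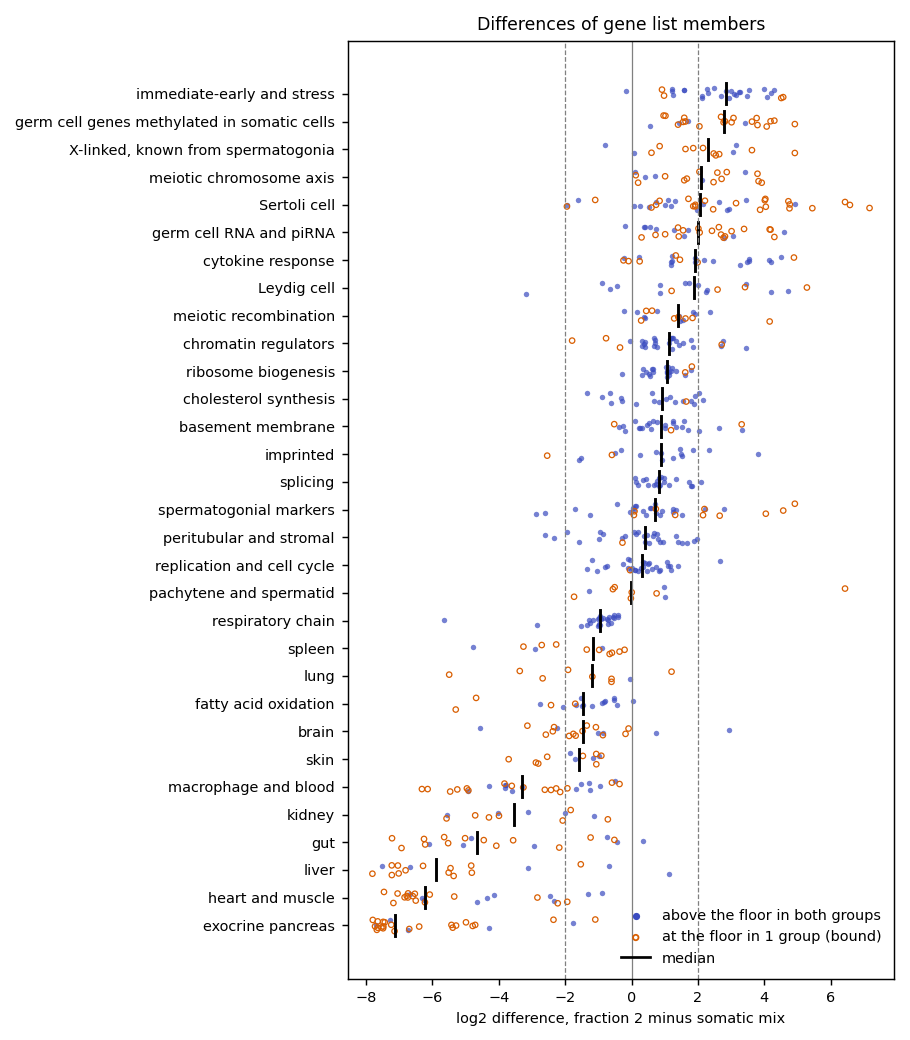
Difference in log2 scaled signal, fraction 2 minus the somatic mix, for every measured member of 31 gene lists; filled points were above the floor in both groups, open points are bounds, black bars are medians and dashed lines mark 4-fold. Immediate-early and germ cell lists are at the top, with medians of 2.85 and 2.77, and the exocrine pancreas list is at the bottom with -7.14.

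Energy metabolism genes were lower in fraction 2 by modest amounts. Of 26 respiratory chain genes, 24 were lower beyond the error limit, where 32.4% of all genes were, and 2 were called, the muscle isoforms Cox6a2 (104 against 5252) and Cox7a1 (402 against 2892). The list's median was -0.95 log2 (-3.00 over the 2 genes measured on the second design alone). Atp5b, the ATP synthase beta subunit, read 4015 in fraction 2 and 7987 in the mix. Of 19 fatty acid oxidation and transport genes read, 5 were called lower and none higher, against 6.5% and 3.91% of all genes measured. Acadvl, the very-long-chain acyl-CoA dehydrogenase, read 803 against 3335, and Fabp3, the heart fatty acid-binding protein, 1174 against 7966, with -0.71 log2 and no call on the second design. Cpt1a, which admits fatty acids to mitochondria, was within the error limit at 1047 and 1026.

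Retinoic acid, imprinted and ion channel genes had few calls, where 3.91% of all genes measured were higher and 6.5% lower. The counts of imprinted and channel genes, 1 or 2 in each direction, were too small to compare with these shares. Beyond the error limit 10 of 17 imprinted genes measured were higher and 5 lower, against 35.8% and 32.4% of all genes. Of 18 channel genes measured, 3 were higher and 9 lower beyond it. Cyp26b1, which degrades retinoic acid, read 1248 in fraction 2, 214 in whole testis and 103 in the mix, 12.1-fold higher than the mix. Crabp1, a retinoic acid-binding protein, read 535 against 20.4, at least 6.10-fold higher, and Aldh1a1, a retinaldehyde dehydrogenase, 6307 against 1573, 4.01-fold. Rbp4, the plasma retinol carrier, was lower at 903 against 7934, and so was Lrat, which esterifies retinol, at 9.98 against 291. Altogether 3 of 21 retinoid genes read were called higher and 2 lower. Of 22 imprinted genes read, Dlk1, a delta-like protein of progenitor cells (1945 against 139), and Plagl1, a zinc finger factor (5065 against 1009), were called higher and the transporter Slc38a4 lower (80.4 against 511). On the second design Plagl1's probe set went the other way (-1.26 log2) and Dlk1's missed the call (at least 1.43 log2). Of 21 voltage-gated and related channel genes read, the potassium channel Kcnd3 was called higher (1259.7 against 161) and Kcnq1 lower (17.7 against 461).

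Other genes reached by the naming rule had no place in a list. Defb19, a beta-defensin of the testis, had the largest bound among the higher genes, at 7292 in fraction 2, 5309 in whole testis and 4.29 in the mix, at least 155-fold higher. Akr1cl, an aldo-keto reductase, read 6290.5, 2559.8 and 54.6, at least 71.8-fold higher. Serpina3a, a serine protease inhibitor, read 3402, 1209 and 47.8, at least 38.8-fold higher. Fraction 2 was the highest of the 3 samples for each. Fraction 5 read higher than fraction 2 for Defb19 (7454) and lower for Akr1cl (3183) and Serpina3a (2435). Tmem114, a membrane protein, read 4573 in fraction 2, 4716 in fraction 5 and 9.53 in the mix, at least 52.2-fold higher in fraction 2 than in the mix. Fxyd6, a regulator of the sodium pump, read 2649.6 against 118, 22.5-fold higher, and Acsbg1, a long-chain acyl-CoA synthetase, 2210.2 against 104, 21.2-fold. Mmd2 read 5656 against 229, 24.7-fold higher, but its other probe set on the second design read 80.5 against 79.3. Ccn1, a matricellular signal protein, differed by 4.13 log2 on the first design and 2.04 on the second.

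How far a difference repeats was read in 2 ways. The 100 probe sets on both designs had 2 arrays per group and were tested with limma over all 10 arrays, with Benjamini-Hochberg adjustment. The sources used here do not say whether a group's 2 arrays held separate preparations, so these p-values may measure technical spread alone. At an adjusted p under 0.05, 36 were higher in fraction 2 (36%) and 13 lower (13%), and 88 of 100 had the same direction on both designs. Zranb1, a deubiquitinase, read 1285 and 1442 in fraction 2 and 352 and 464 in the mix (1.75 log2, SE 0.17, limma adjusted p = 1.27e-08). Ankrd17 differed by 1.45 log2, Cpsf7 by 1.33, Rrn3 by 1.23 and Huwe1 by 1.22. Dhrs1, a short-chain dehydrogenase, read 153 and 135 in fraction 2 and 468 and 929 in the mix (-2.20 log2, SE 0.22, limma adjusted p = 1.27e-08), the only one of the 49 called probe sets past 4-fold. Rfk (-1.09 log2), Golm1 (-0.92), Naa60 (-0.84) and Psenen (-0.75) were lower as well. None of these genes is a germ or Sertoli cell marker of the lists.

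A second reading used 2202 genes measured on both designs by different probe sets. Of 80 called higher on the first design, 57 had the same direction on the second (71.3%), where 46.4% of all these genes were higher, and 23 were called there too. Of 67 called lower, 61 had the same direction (91.0%, against 53.6% of all these genes), 17 were called and 1 was called the other way. Across these genes, which are not independent replicates, the differences on the 2 designs correlated with r = 0.45, against 0.88 across the shared probe sets.

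**Figure D5:**
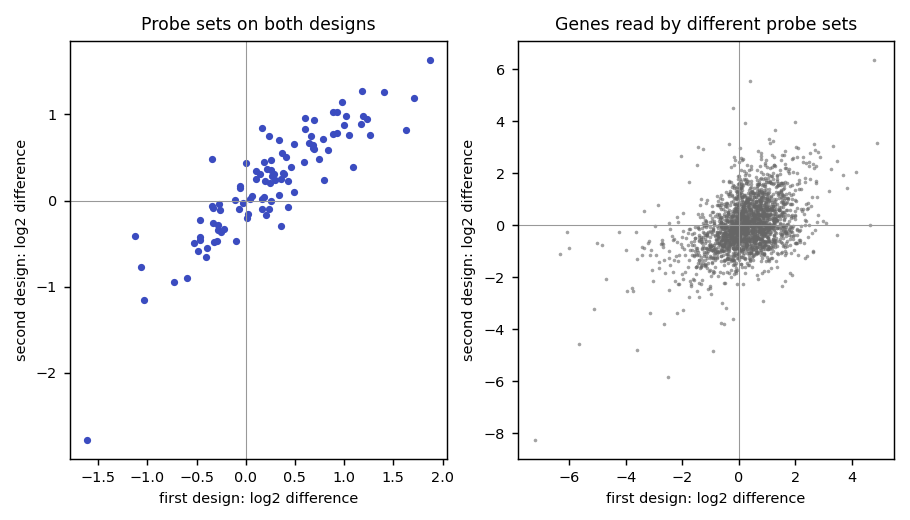
Difference in log2 signal, fraction 2 minus the mix, on the first design (horizontal) and the second design (vertical). Left, the 100 probe sets on both designs (r = 0.88); right, 2202 genes whose probe set differed between the designs (r = 0.45), whose points scatter more widely.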

How the data were processed

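The authors deposited linear intensity values, 1 per probe set and array, and GCOS 1 is named in the submitters' processing notes. The sources used here do not give background correction, detection calls or a scaling target. Per the labels' protocols, biotinylated cRNA was made from total RNA by linear amplification. Each array was scaled to the mean of the 2% trimmed means of its design's 5 arrays, which were 429 and 405 for fraction 2 and the mix on the first design and 105 and 63.4 on the second, as deposited. The first design's floor was the 90th percentile of signal over its 68 probe sets for chemosensory receptors. With 13 of these, under a minimum of 20, the second design took its median signal as floor. Probe sets naming 1 gene were kept (20380 and 14661), and 691 and 245 naming several and 1555 and 7605 naming none were left out. The probe set of highest mean log2 signal stood for a gene, taken from the first design for 11769 genes with any probe set above its floor, and from the second for 6424. Symbols and chromosomes were updated through the RefSeq table of GRCm38.p6, where 20351 and 14486 probe sets matched.

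Genes were named by rule: in each direction the 12 largest differences among genes above both floors and the 10 highest signals among genes at the floor in the other group. Unnamed clones were left out, as were genes with a probe set that opposed the call by over 1 log2. Members of 33 gene lists, and of 3 lists added after the values were seen, were named besides. The members and lists were chosen with earlier results of these data known. Shared probe sets were tested with limma 3.58.1 in R 4.3.3, and both steps were tested on simulated data. Alternatives were other scalings, floors, a log2 of signal plus floor, other choices of probe set, each design alone, and for limma the block, the arrays left out in turn and the 4 arrays alone. The number of arrays, 1 per group and design, limits the precision.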

Additional observations from a re-analysis of the deposited data

Results flagged for a closer look

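Signal also appeared in probe sets outside the gene comparison. Among probe sets with no gene name, 28 of 776 measured on the first design and 33 of 3972 on the second were at least 4-fold higher in fraction 2 than in the mix, and 60 and 41 were lower. The control probe set for 18S ribosomal RNA at its 3′ end was 4.13 times higher in fraction 2 than in the mix on the first design (2174 against 526) and 4.74 times higher on the second (2716 against 573). It read 176 and 154 in whole testis and 1801 and 1814 in fraction 5. The share of ribosomal RNA and its part in the results were not tested.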

How the results depend on the processing

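The count of genes at least 4-fold higher in fraction 2 was 572, and it was 859 on the values as deposited and 357 with log2 of signal plus floor. The count lower was 950, and 605 with the floor at the 60th percentile. With each design alone the counts were 273 to 387 higher and 253 to 753 lower, where fewer genes were read. The other alternatives kept both counts within 1.5 times. Among the 100 shared probe sets, limma's calls, 36 higher and 13 lower, were 7 and 5 after quantile normalization and 58 and 6 with median scaling, and 1 was lower on the values as deposited. Leaving out arrays in turn, with the lone sample assumed to vary like the other groups, gave 24 to 36 higher and 5 to 15 lower, with 5 lower without fraction 2's first sample and 6 without the mix's second. The replicate number is also the array design, and the fit with it as a replicate block gave 38 and 13, sharing 49 calls with the fit without it. Deviations of same-numbered samples correlated at 0.20 between fraction 2 and the mix and from -0.016 to 0.57 over all pairs of groups. For none of these changes was the cause tested, apart from the smaller number of genes or arrays. Bounds of genes at the floor move with it: with the floor at the 60th percentile Cyp17a1 went from 5.28 to 3.93 log2, Dmrt1 from 4.04 to 2.69, and Mfap4, near the floor in the mix, from 4.91 to 3.68. The same floor took the medians of the methylated germ cell list from 2.77 to 1.66 and of the germ cell RNA list from 2.01 to 1.34. On the second design alone, which held few members of most lists, medians went from -3.29 to -1.46 for macrophage and blood genes (2 measured), from 0.83 to 0.052 for splicing (6), from 1.07 to 0.51 for ribosome biogenesis (6) and from -1.47 to -0.17 for fatty acid oxidation (4). The peritubular (-0.39), basement membrane (-0.25), imprinted (-0.21) and Y-linked (-0.37) medians changed sign there, and the pachytene and spermatid median, near 0, did so in several settings.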
